A study of Mus musculus with 18 samples.

Results

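The comparison described here sets cultured mouse CD8+ T cells labelled Nr4a1 KO against cells labelled Nr4a1 WT. Its members were the 4 libraries that the labels name Nr4a1 KO and Nr4a1 WT, of 18 libraries in the series, and the read counts of every gene with at least 10 counts in 2 or more of those 4 libraries, which kept 14268 of 17738 genes. Naive CD8+ T cells of either genotype were activated on plates coated with antibodies to CD3 and CD28 at 2 μg/mL, and before RNA extraction both received PMA and ionomycin for 2 h, which trigger protein kinase C and calcium signals without the T cell receptor. Of the remaining 14 libraries, 4 are used for setting values side by side: cultured cells that carry extra Nr4a1 from a virus (Nr4a1-OV, 2 libraries) and cells that received the RV-GFP virus (RV-GFP, 2 libraries), restimulated in the same way. Another 6 are used likewise: tumour-infiltrating Ly108+ OT-I cells labelled Nr4a1 KO (3 libraries) or Nr4a1 WT (3 libraries), in which OT-I denotes a transgenic receptor that recognises ovalbumin. The sources used here do not give the strain, the age or sex of the mice, how the Nr4a1 allele was made, the length of culture, or whether the 2 libraries of a group came from separate mice. The p-values below therefore measure only the spread between these libraries, which may be technical.

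NR4A1 (Nur77) is an orphan nuclear receptor whose gene responds rapidly to antigen receptor signalling, as are those of its paralogs NR4A2 and NR4A3. It binds DNA as a monomer at an element called NBRE, and it can pair with the retinoid X receptor RXRα. In T cells the family is known for restraining effector functions and for its high level in cells stimulated for long periods. Activated CD8+ T cells become killers by making perforin and granzymes, secrete interferon-γ and chemokines, and in doing so lose transcription factors of the naive and memory states such as TCF-1, LEF-1 and ID3.

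The libraries held 16.85 and 16.95 M counts in the KO-labelled group and 17.02 and 17.12 M counts in the WT-labelled group. On the first principal component, which carried 84% of the variance among the 4 libraries, both KO-labelled libraries lay on one side and both WT-labelled libraries on the other. Library pairs of a group varied beyond counting noise (chi-square divided by its degrees of freedom, 3.12 for the KO-labelled pair and 3.55 for the WT-labelled pair). Counts in mitochondrially encoded genes came to 3.88% and 3.57% of the KO-labelled libraries and 3.92% and 3.75% of the WT-labelled libraries, and those in ribosomal protein genes to 4.04% and 3.93% against 3.36% and 3.18%.

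Nr4a1 itself (chromosome 15, 101254269 to 101274795 on GRCm38) checks the labels. It read at 357 and 358 CPM in KO-labelled libraries and 286 and 333 CPM in WT-labelled libraries, where CPM is the count scaled to a common library size after TMM adjustment. Both KO-labelled libraries were above both WT-labelled libraries (log2 fold change 0.21, SE 0.07, adjusted p = 0.0151, edgeR's quasi-likelihood test with Benjamini-Hochberg adjustment). The call ended in each of 3 fits that left out 1 library: the adjusted p was 0.0628 without Nr4a1 KO replicate 1, 0.0652 without Nr4a1 KO replicate 2 and 0.25 without Nr4a1 WT replicate 1. The targeted gene was thus not lower in the libraries labelled KO. A count per gene does not show whether a deleted part is missing from the transcript, so the label is neither borne out nor contradicted by this value, and every direction below rests on the labels as given. In addition, 5 pseudogenes or long noncoding RNA genes, described at the end, set the WT-labelled libraries apart from the other 6 cultured libraries and ran against the genotype labels in the Ly108+ cells. Nr4a2 read at 302 and 285 CPM in KO-labelled libraries and 198 and 222 CPM in WT-labelled libraries and rose (log2 fold change 0.48). Nr4a3 read at 645 and 689.5 CPM in KO-labelled libraries and 425 and 461 CPM in WT-labelled libraries and rose as well (log2 fold change 0.59). In the virus-infected cultures Nr4a1 stood higher than in either, at 5414 and 5181 CPM in Nr4a1-OV and 2002 and 2211 CPM in RV-GFP libraries.

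All 4 libraries carried the T cell genes that the labelled cell type requires. Cd8a, which encodes a chain of the CD8 coreceptor, read at 1021 and 937 CPM in KO-labelled libraries and 784 and 782 CPM in WT-labelled libraries. Cd3e, a chain of the T cell receptor complex, read at 279.9 and 265 CPM in KO-labelled libraries and 331 and 348 CPM in WT-labelled libraries. Cd4 had 7 and 4 counts in the KO-labelled libraries and 5 and 4 in the WT-labelled libraries, Cd79a of B cells 4 and 8 against 3 and 6, and Lyz2 of myeloid cells 5 and 4 against 2 and 0. Among T cell receptor β variable segments 22 passed the filter, and the segment with the most counts held 11.5% and 11% of their sum in the KO-labelled libraries and 10.7% and 10.8% in the WT-labelled libraries.

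Of the 14268 genes tested, 6003 passed the adjusted threshold of 0.05, which is 42.1%. In the KO-labelled libraries 2825 were higher (19.8%) and 3178 were lower (22.3%). Most differences were small, with a median absolute log2 fold change of 0.406 among the genes called. At least 2-fold differences were found for 980 genes (6.87%), of which 677 were higher (4.74%) and 303 lower (2.12%). The KO-labelled and WT-labelled libraries did not overlap in CPM for 9989 genes (70%). Most list members named below were picked by small p among called genes. That their groups do not overlap follows largely from that choice and adds no support. In a fit to only these 4 libraries the balance turned, with 2942 genes higher and 2817 lower, so the split by direction is close to even.

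**Figure D1:**
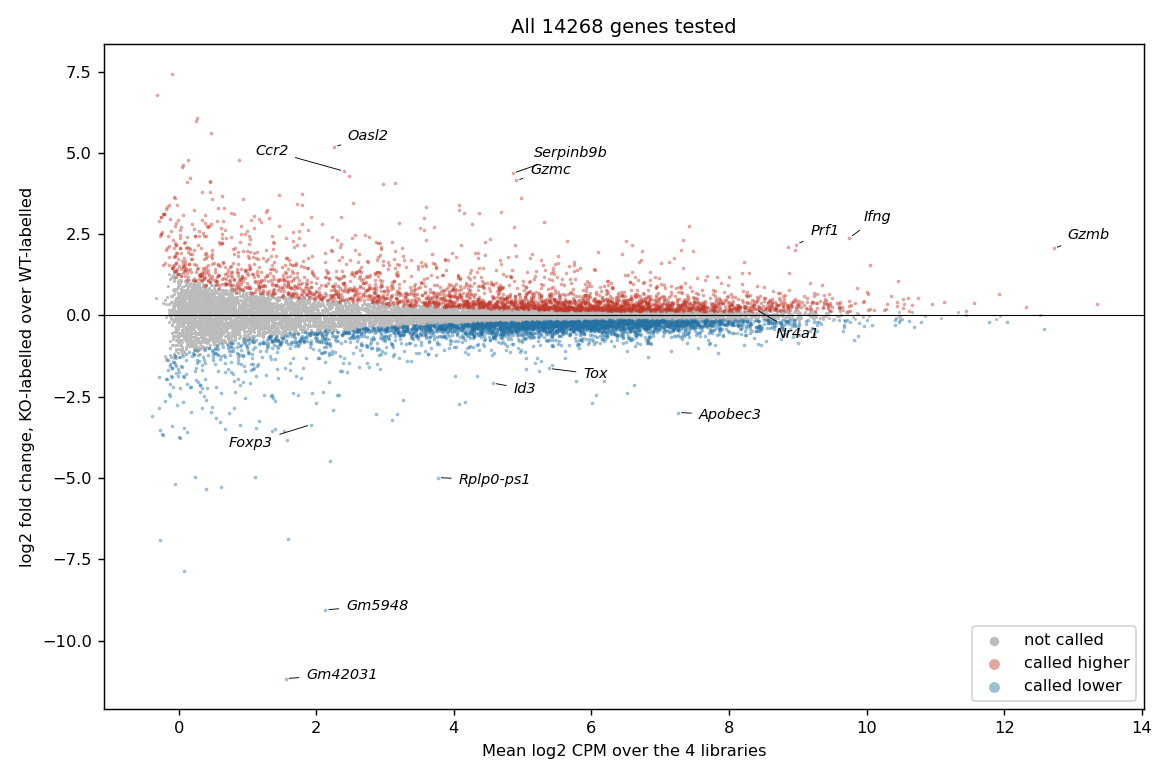
Each point is 1 of the 14268 genes tested, with the mean log2 CPM over the 4 libraries on the x axis and the log2 fold change of KO-labelled over WT-labelled libraries on the y axis. Colours mark genes called higher (2825) or lower (3178) at an adjusted p below 0.05, and a few named genes are labelled, Nr4a1 among them close to 0.

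Fold changes were ranked among called genes with a mean log2 CPM of at least 1 whose groups did not overlap. Gm-number and Rik symbols were left out. The highest included interferon-induced genes, a chemokine receptor, a granzyme and a serpin. Oasl2, an interferon-induced relative of oligoadenylate synthetases, read at 22 and 20.1 CPM in KO-labelled libraries and 0.439 and 0.706 CPM in WT-labelled libraries (log2 fold change 5.18, SE 0.2, adjusted p = 2.98e-14). Ccr2, the receptor for the chemokine CCL2, read at 19.7 and 19.5 CPM in KO-labelled libraries and 0.878 and 0.923 CPM in WT-labelled libraries (log2 fold change 4.43, SE 0.17, adjusted p = 2.51e-14). Serpinb9b, a serpin of the granzyme inhibitor family, read at 121 and 134 CPM in KO-labelled libraries and 5 and 7.33 CPM in WT-labelled libraries (log2 fold change 4.37, SE 0.13, adjusted p = 3.95e-16). That the KO-labelled libraries lay above the WT-labelled ones in these and the genes that follow was a condition of the ranking. Ifi44, another interferon-induced gene, read at 19.1 and 20.8 CPM in KO-labelled libraries and 0.878 and 1.14 CPM in WT-labelled libraries (log2 fold change 4.29). Bst1 (CD157), an ADP-ribosyl cyclase, read at 34.7 and 31.3 CPM in KO-labelled libraries and 1.15 and 2.77 CPM in WT-labelled libraries (log2 fold change 4.07). Also among the 15 highest were Gzmc, H2-Q10, which encodes a nonclassical MHC class I chain and has near-identical relatives that may share its reads, Cd36, a fatty acid receptor, Tnfrsf11b, a decoy receptor for RANKL, Oas1a, Gipc2, Dennd3, Il23a, which encodes the p19 chain of interleukin 23, and AA467197. Their log2 fold changes ran between 3.23 for AA467197 and 4.15 for Gzmc.

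The lowest fold changes under the same limits were led by a pseudogene and by genes at low levels. Gm42031, Gm5948 and Gm8199, left out for their symbols and described at the end, fell further. Rplp0-ps1, a processed pseudogene of a ribosomal protein gene, read at 2.3 and 2.04 CPM in KO-labelled libraries and 69.6 and 68.3 CPM in WT-labelled libraries (log2 fold change -4.99, SE 0.13, adjusted p = 5.12e-17), and its near-identical parent could share its reads. Apobec3, which encodes a cytidine deaminase that restricts retroviruses, read at 54.6 and 53.7 CPM in KO-labelled libraries and 421 and 435 CPM in WT-labelled libraries (log2 fold change -2.98, SE 0.06, adjusted p = 1.94e-18). Foxp3, the defining factor of regulatory T cells, read at 1.15 and 0.737 CPM in KO-labelled libraries and 11 and 8.36 CPM in WT-labelled libraries (log2 fold change -3.35, SE 0.21, adjusted p = 1.1e-10). It was low in every one of the 4 libraries. Npas4, a factor induced by calcium signals, read at 5.11 and 7.42 CPM in KO-labelled libraries and 39.8 and 43.9 CPM in WT-labelled libraries (log2 fold change -2.74). Arc, another gene induced by calcium, read at 3.21 and 2.55 CPM in KO-labelled libraries and 20.6 and 26.7 CPM in WT-labelled libraries (log2 fold change -3.04). Rxra, which encodes the nuclear receptor partner RXRα, read at 1.03 and 0.567 CPM in KO-labelled libraries and 5.43 and 4.45 CPM in WT-labelled libraries (log2 fold change -2.62, SE 0.28, adjusted p = 2.71e-07). The other 9 of the 15 lowest were Vat1l, Zan, Fam81a, Fcrl1, Wnt10a, Trpm1, Ighd, Vsig10 and AC102496.1, with log2 fold changes between -3.56 for Vat1l and -2.67 for AC102496.1. In absolute CPM the greatest gains were those of Gzmb, mt-Co1, Eef1a1, Ifng and Ccl3 and the greatest losses those of mt-Cytb, Actb, mt-Nd2, Myh9 and Mki67, and the call of mt-Nd2 (log2 fold change -0.2) ended without Nr4a1 KO replicate 2 or without Nr4a1 WT replicate 1.

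Genes of killing rose together in the KO-labelled libraries. Of 18 tested genes for granzymes, perforin and other granule components, 13 rose and 0 fell, and the median log2 fold change was 0.669, beside -0.0215 over all genes tested. Prf1, which encodes the pore-forming protein perforin, read at 1088 and 1059 CPM in KO-labelled libraries and 231 and 243 CPM in WT-labelled libraries (log2 fold change 2.18, SE 0.05, adjusted p = 5.05e-17). Gzmb, the main apoptosis-inducing granzyme, read at 14389.7 and 13282 CPM in KO-labelled libraries and 3554 and 3087 CPM in WT-labelled libraries (log2 fold change 2.06, SE 0.07, adjusted p = 1.59e-15). Gzmc, a granzyme of highly activated killer cells, read at 128 and 115 CPM in KO-labelled libraries and 6.86 and 6.84 CPM in WT-labelled libraries (log2 fold change 4.15, SE 0.11, adjusted p = 7.41e-17). The lower of the KO-labelled libraries was above the higher of the WT-labelled libraries for each of these genes. Fasl, the ligand that triggers the death receptor Fas, read at 71.4 and 66.6 CPM in KO-labelled libraries and 20.8 and 21.3 CPM in WT-labelled libraries (log2 fold change 1.71). The summed level of the list was 18430 and 17090 CPM in the KO-labelled libraries and 5919 and 5420 CPM in the WT-labelled libraries, most of it Gzmb. The 5 members that did not pass were Gzmm, Lamp1, Ctsw, Unc13d and Stxbp2.

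Granzymes C, D, E and F are near-identical neighbours on chromosome 14, so reads may be split among them. Gzmd had 81 counts over both KO-labelled libraries and 1 over both WT-labelled libraries, a ratio of 84.6 (exact 95% interval 14.8 to 3384, counting error only). Gzme had 58 counts against 3, a ratio of 20.2 (interval 6.58 to 100.8). Both genes passed the count filter only through the KO-labelled libraries, where they are high, so these ratios are descriptive. These 2 genes are shown by sequence because each holds the NBRE letters AAAGGTCA, on the reverse strand, in the 300 bases from 250 before to 50 after its start. The motif was found, on either strand, in 118 of 9706 tested genes with a RefSeq promoter (1.22%), in 1.48% of the genes called higher, 1.02% of those called lower and 1.2% of those not called. The 150 bases before each start follow (RefSeq, GRCm38.p6, coordinates chr14:56132594-56132743 and chr14:56120626-56120775, both on the minus strand, motif in capitals).
Gzmd: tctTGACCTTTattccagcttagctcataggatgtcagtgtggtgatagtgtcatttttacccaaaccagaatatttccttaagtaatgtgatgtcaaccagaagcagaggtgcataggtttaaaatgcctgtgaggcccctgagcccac
Gzme: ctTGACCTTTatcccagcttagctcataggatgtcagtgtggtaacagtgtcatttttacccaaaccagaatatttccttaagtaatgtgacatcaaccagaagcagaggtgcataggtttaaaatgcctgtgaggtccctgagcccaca
Neither Prf1, Gzmb nor Gzmc holds these letters in that window. Rxra, among the 15 lowest genes, holds the same letters in 1 of its 2 listed promoters (chr2:27709142-27709291, plus strand), as the following 150 bases show, and whether NR4A1 binds at any of these windows was not tested.
Rxra: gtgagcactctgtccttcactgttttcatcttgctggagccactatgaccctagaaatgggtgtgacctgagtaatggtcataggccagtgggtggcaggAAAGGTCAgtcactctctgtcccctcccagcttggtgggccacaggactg

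Serpins and cystatins that inhibit granzymes and cathepsins protect a killer cell from its own granules. Of 9 tested, 7 rose and 2 fell, with a median log2 fold change of 0.583. Serpinb9, the inhibitor of granzyme B, read at 992 and 931 CPM in KO-labelled libraries and 224 and 219 CPM in WT-labelled libraries (log2 fold change 2.12, SE 0.05, adjusted p = 5.05e-17). Serpinb6b read at 989.9 and 1008 CPM in KO-labelled libraries and 249 and 246 CPM in WT-labelled libraries (log2 fold change 2.01, SE 0.05, adjusted p = 5.05e-17), and Serpinb6a at 125 and 124 CPM in KO-labelled libraries and 81.6 and 84.6 CPM in WT-labelled libraries (log2 fold change 0.58). The groups did not overlap in any of the 3, as in 70% of all genes tested. The 2 members that fell were Serpina3g and Serpina3f, cathepsin inhibitors with close relatives in the genome.

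**Figure D2:**
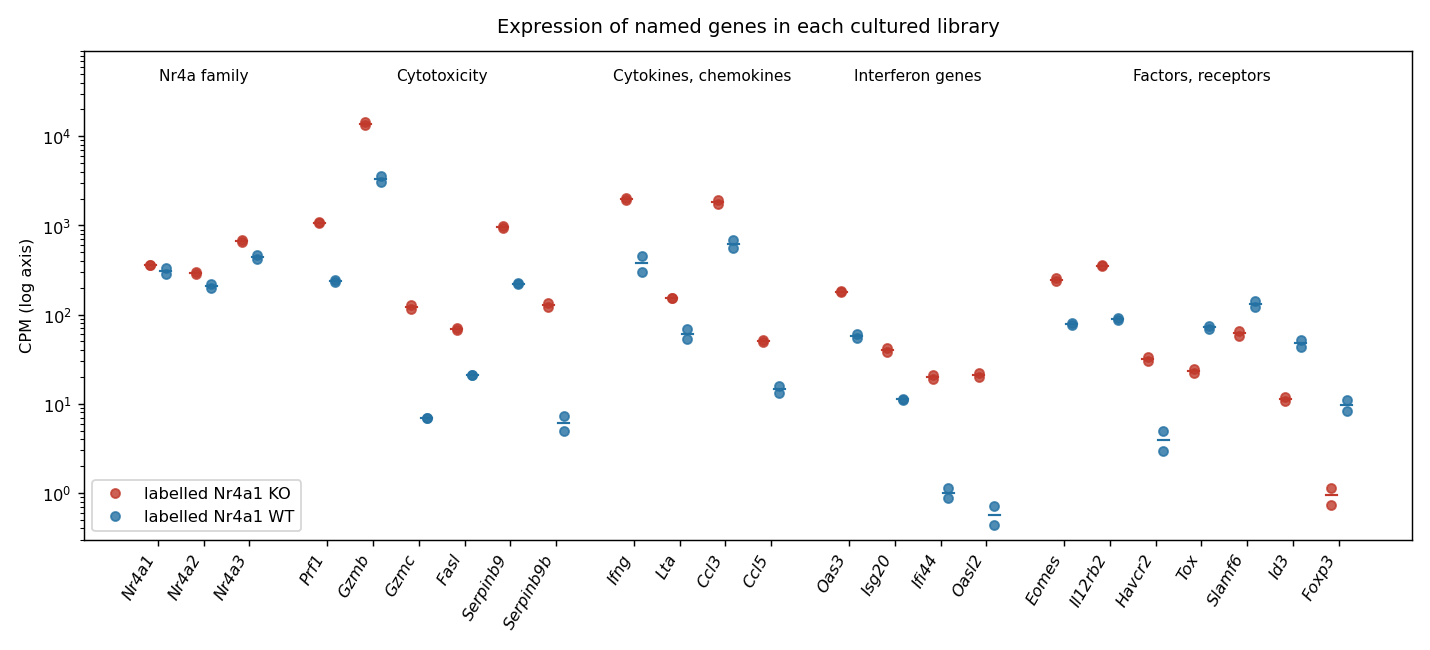
Points are single libraries and short bars the mean of 2, in CPM on a log axis, with KO-labelled libraries left of WT-labelled libraries for each gene. Prf1, Gzmb, Gzmc, Ifng and the interferon genes stand higher in both KO-labelled libraries, Tox, Slamf6, Id3 and Foxp3 stand lower, and the 3 Nr4a genes lie closer together.

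Cytokine genes passed the threshold in every tested case, 10 of 13 higher and 3 lower, with a median log2 fold change of 0.791. Ifng, which encodes interferon-γ, read at 2045 and 1937 CPM in KO-labelled libraries and 456 and 304 CPM in WT-labelled libraries (log2 fold change 2.39, SE 0.11, adjusted p = 5.79e-13). Both KO-labelled libraries were far above both WT-labelled ones, which also differed from each other. Lif read at 64.1 and 56.6 CPM in KO-labelled libraries and 32.5 and 20.3 CPM in WT-labelled libraries (log2 fold change 1.19) and Osm at 25.4 and 24.3 CPM in KO-labelled libraries and 13.1 and 8.36 CPM in WT-labelled libraries (log2 fold change 1.21); both encode cytokines of the interleukin 6 family. Csf1, the growth factor of macrophages, moved the other way, at 20.5 and 20.7 CPM in KO-labelled libraries and 65 and 68.4 CPM in WT-labelled libraries (log2 fold change -1.69, SE 0.08, adjusted p = 3.62e-13). Il2 stood at only 3.04 and 2.61 CPM in KO-labelled libraries and 2.2 and 1.63 CPM in WT-labelled libraries (log2 fold change 0.56, adjusted p = 0.0397), a call that ended without Nr4a1 KO replicate 1, Nr4a1 KO replicate 2 or Nr4a1 WT replicate 2. The levels of Il2 in the RV-GFP libraries, 250.3 and 263 CPM, were far higher after the same restimulation.

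Chemokines that attract T cells and myeloid cells rose too, 7 of 9 higher and 1 lower, with a median log2 fold change of 1.17. Ccl3 read at 1929 and 1719 CPM in KO-labelled libraries and 686 and 559.8 CPM in WT-labelled libraries (log2 fold change 1.55, SE 0.08, adjusted p = 3.79e-12), Ccl4 at 469.7 and 446 CPM in KO-labelled libraries and 192 and 180.3 CPM in WT-labelled libraries (log2 fold change 1.3) and Ccl5 at 51.5 and 49.4 CPM in KO-labelled libraries and 13.2 and 16 CPM in WT-labelled libraries (log2 fold change 1.79). Spp1 (osteopontin), a secreted adhesion protein, read at 402 and 367 CPM in KO-labelled libraries and 163 and 178 CPM in WT-labelled libraries (log2 fold change 1.17). Of 12 TNF superfamily ligands 6 rose and 4 fell. Lta, lymphotoxin α, read at 153 and 153 CPM in KO-labelled libraries and 68.9 and 52.9 CPM in WT-labelled libraries (log2 fold change 1.33, SE 0.08, adjusted p = 8.86e-11), and Tnf at 41.6 and 42.8 CPM in KO-labelled libraries and 20.3 and 16.8 CPM in WT-labelled libraries (log2 fold change 1.19). Tnfsf10, the death ligand TRAIL, was lower, at 44.1 and 35.9 CPM in KO-labelled libraries and 77.3 and 72.3 CPM in WT-labelled libraries (log2 fold change -0.9).

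Of 18 tested receptors for interleukin 2 and related cytokines 11 rose and 2 fell, with a median log2 fold change of 0.287. Il12rb2, the signalling chain of the interleukin 12 receptor, read at 347 and 362 CPM in KO-labelled libraries and 91.5 and 86.8 CPM in WT-labelled libraries (log2 fold change 1.99, SE 0.06, adjusted p = 3.57e-16). Il10ra, the ligand-binding chain of the interleukin 10 receptor, read at 199 and 203 CPM in KO-labelled libraries and 36.6 and 45.3 CPM in WT-labelled libraries (log2 fold change 2.29, SE 0.07, adjusted p = 1.36e-15). Il7r, which marks memory precursors, read at 259 and 275 CPM in KO-labelled libraries and 86.4 and 109 CPM in WT-labelled libraries (log2 fold change 1.45, SE 0.08, adjusted p = 9.15e-12). All 3 were higher in both KO-labelled libraries. Il18r1 fell, at 164 and 155 CPM in KO-labelled libraries and 258 and 278 CPM in WT-labelled libraries (log2 fold change -0.75). Of 11 tested feedback genes of the SOCS, Pim and STAT families, 8 rose and 1 fell. Stat3, the signal transducer of interleukins 6 and 10, read at 853 and 943 CPM in KO-labelled libraries and 444 and 499 CPM in WT-labelled libraries (log2 fold change 0.93), and the kinase gene Pim1 at 363 and 319 CPM in KO-labelled libraries and 168 and 133 CPM in WT-labelled libraries (log2 fold change 1.18). The 1 decrease in this list, Socs2 (log2 fold change -0.35), did not pass without Nr4a1 KO replicate 2 or without Nr4a1 WT replicate 1.

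Inhibitory receptors did not move together. Of 17 tested, 7 were higher and 6 lower, with a median log2 fold change of -0.0413. Havcr2, which encodes Tim-3, read at 33.2 and 30.1 CPM in KO-labelled libraries and 4.94 and 2.99 CPM in WT-labelled libraries (log2 fold change 3, SE 0.13, adjusted p = 2.75e-13), and the groups did not overlap. Pdcd1, which encodes PD-1, read at 188 and 193 CPM in KO-labelled libraries and 225 and 245 CPM in WT-labelled libraries and fell slightly (log2 fold change -0.3), while Lag3 read at 314 and 308 CPM in KO-labelled libraries and 189.9 and 219 CPM in WT-labelled libraries and rose (log2 fold change 0.6). Btla, at 84.5 and 87.8 CPM in KO-labelled libraries and 154 and 156 CPM in WT-labelled libraries (log2 fold change -0.84), and Cd5, at 279 and 289.5 CPM in KO-labelled libraries and 493 and 482 CPM in WT-labelled libraries (log2 fold change -0.78), both dampeners of receptor signals, were lower. Cd274, which encodes PD-L1, was higher, at 88.5 and 89.6 CPM in KO-labelled libraries and 61.6 and 63.7 CPM in WT-labelled libraries (log2 fold change 0.51). Costimulatory and death receptors were split as well, 5 of 12 higher and 5 lower. Tnfrsf9 (4-1BB) read at 1321 and 1342 CPM in KO-labelled libraries and 820.5 and 779 CPM in WT-labelled libraries (log2 fold change 0.74) and Cd27 at 205 and 201 CPM in KO-labelled libraries and 255 and 270.0 CPM in WT-labelled libraries (log2 fold change -0.37). Tnfrsf8 (CD30) rose to 13 and 13 CPM in KO-labelled libraries, against 2.31 and 0.869 CPM in WT-labelled libraries (log2 fold change 3.03).

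Of 8 listed receptors and adaptors shared with NK cells, 7 rose and 0 fell, with a median log2 fold change of 0.874. Among all 12 tested killer lectin-like receptor genes, taken by symbol, 8 rose and 1 fell. The lowest log2 fold change of that family was -1.05, for Klrb1f. Klrc1, which encodes the inhibitory receptor NKG2A, read at 304 and 322 CPM in KO-labelled libraries and 123 and 145 CPM in WT-labelled libraries (log2 fold change 1.22, SE 0.07, adjusted p = 8.86e-12). Klrd1, its partner CD94, read at 253 and 237 CPM in KO-labelled libraries and 143 and 175 CPM in WT-labelled libraries (log2 fold change 0.62), and Klrk1, the activating receptor NKG2D, at 437 and 449 CPM in KO-labelled libraries and 292 and 319 CPM in WT-labelled libraries (log2 fold change 0.54). Of 18 chemokine receptors, integrins and homing genes, 7 rose and 7 fell. Beside Ccr2, the integrin gene Itgav rose, at 173 and 196 CPM in KO-labelled libraries and 94.5 and 96.2 CPM in WT-labelled libraries (log2 fold change 0.95), and S1pr4, a receptor for sphingosine 1-phosphate, fell, at 32.8 and 35.6 CPM in KO-labelled libraries and 62.4 and 65.8 CPM in WT-labelled libraries (log2 fold change -0.91). Of 9 adenosine and NAD enzymes and receptors, 4 rose and 3 fell. At 2-fold or more 1 was higher and 1, not described here, was lower. Nt5e (CD73), which makes adenosine, read at 108 and 119 CPM in KO-labelled libraries and 170.2 and 187 CPM in WT-labelled libraries (log2 fold change -0.66), and Adora2b, an adenosine receptor, at 7.35 and 8.95 CPM in KO-labelled libraries and 2.36 and 1.74 CPM in WT-labelled libraries (log2 fold change 1.99).

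More effector and exhaustion factors rose than fell, and more stem-like and naive-memory genes fell than rose. Of 18 effector and exhaustion factors 12 rose and 5 fell, with a median log2 fold change of 0.431. Eomes, a T-box factor of killer and memory cells, read at 257 and 236 CPM in KO-labelled libraries and 76 and 81.1 CPM in WT-labelled libraries (log2 fold change 1.65, SE 0.06, adjusted p = 2.35e-14). Bhlhe40, which supports interferon-γ production, read at 718 and 756 CPM in KO-labelled libraries and 292 and 301 CPM in WT-labelled libraries (log2 fold change 1.31, SE 0.05, adjusted p = 6.6e-14), and Zeb2, a factor of terminal effectors, at 52.5 and 56.6 CPM in KO-labelled libraries and 22.7 and 24.4 CPM in WT-labelled libraries (log2 fold change 1.21). Prdm1, which encodes Blimp-1, read at 5.51 and 8.1 CPM in KO-labelled libraries and 1.48 and 0.76 CPM in WT-labelled libraries (log2 fold change 2.6), low in every library but higher in both KO-labelled ones. Tbx21, which encodes T-bet, read at 79.1 and 77.7 CPM in KO-labelled libraries and 84.4 and 82.3 CPM in WT-labelled libraries and did not pass (adjusted p = 0.232). Tox, a factor of exhausted cells, fell, at 22.2 and 24.5 CPM in KO-labelled libraries and 69.8 and 74.6 CPM in WT-labelled libraries (log2 fold change -1.63, SE 0.07, adjusted p = 4.2e-13). The groups did not overlap in these, and for Tbx21 the gap was small.

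Among 23 stem-like and naive-memory genes, 13 fell and 4 rose, and the median log2 fold change was -0.474. Id3, an inhibitor of E proteins that marks memory precursors, read at 10.7 and 11.8 CPM in KO-labelled libraries and 43.1 and 51.9 CPM in WT-labelled libraries (log2 fold change -2.08, SE 0.12, adjusted p = 2.53e-11). Slamf6, which encodes the surface protein Ly108, read at 66.3 and 58.1 CPM in KO-labelled libraries and 123 and 143 CPM in WT-labelled libraries (log2 fold change -1.09, SE 0.07, adjusted p = 2.17e-10). Il6st, the shared gp130 chain, read at 38.1 and 41 CPM in KO-labelled libraries and 77.3 and 80.4 CPM in WT-labelled libraries (log2 fold change -1). Both KO-labelled libraries were below both WT-labelled libraries for these 3. Klf2, which keeps T cells recirculating, read at 21.5 and 21.4 CPM in KO-labelled libraries and 55.3 and 63.3 CPM in WT-labelled libraries (log2 fold change -1.47), Lef1 at 74.9 and 75 CPM in KO-labelled libraries and 130.5 and 140.3 CPM in WT-labelled libraries (log2 fold change -0.85) and Tcf7, which encodes TCF-1, at 291 and 277 CPM in KO-labelled libraries and 354 and 435 CPM in WT-labelled libraries (log2 fold change -0.47). Against that direction, Il7r was higher, and so were Ccr7 and Tnfsf8, with log2 fold changes of 0.37 and 0.55.

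Early-response factors, which the restimulation induces, changed in part. Of the 9 NR4A, EGR and NAB genes 5 rose and 3 fell. At 2-fold or more 0 were higher and 1, not described here, was lower. Egr3, a factor that limits T cell activation, read at 98.7 and 95.7 CPM in KO-labelled libraries and 122 and 159 CPM in WT-labelled libraries (log2 fold change -0.53), and Nab1, a corepressor of EGR factors, at 100.3 and 105 CPM in KO-labelled libraries and 78.4 and 78 CPM in WT-labelled libraries (log2 fold change 0.39). Of 16 AP-1 and bZIP genes 9 rose and 1 fell, with a median log2 fold change of 0.321. Jun read at 70.9 and 74.6 CPM in KO-labelled libraries and 35.5 and 37.4 CPM in WT-labelled libraries (log2 fold change 1), Fosl2 at 105 and 114 CPM in KO-labelled libraries and 52.2 and 57.5 CPM in WT-labelled libraries (log2 fold change 1) and Atf3, a stress-induced member, at 28.5 and 33.4 CPM in KO-labelled libraries and 15.2 and 12.3 CPM in WT-labelled libraries (log2 fold change 1.17). All 3 were higher in both KO-labelled libraries than in either WT-labelled one. Of 17 NF-κB and NFAT genes 8 rose and 3 fell. Tnfaip3 (A20), a feedback inhibitor of NF-κB, read at 223 and 241 CPM in KO-labelled libraries and 121 and 134 CPM in WT-labelled libraries (log2 fold change 0.86), and Bcl3, a nuclear IκB, at 55.6 and 48.3 CPM in KO-labelled libraries and 23.1 and 24.7 CPM in WT-labelled libraries (log2 fold change 1.12). Of 13 MAP kinase phosphatase and Sprouty genes 5 rose, Dusp5 most, at 150.5 and 147 CPM in KO-labelled libraries and 67.6 and 71.3 CPM in WT-labelled libraries (log2 fold change 1.1), and 1, Dusp10, fell, a call that was absent without Nr4a1 KO replicate 1, Nr4a1 KO replicate 2 or Nr4a1 WT replicate 2.

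Genes of T cell receptor signalling were split with small changes, 8 of 25 higher and 12 lower, with a median log2 fold change of -0.042 and none at 2-fold. Cd247, the ζ chain of the receptor complex, read at 156 and 146 CPM in KO-labelled libraries and 102 and 107 CPM in WT-labelled libraries (log2 fold change 0.52). Cd69, an early activation marker, read at 217 and 216 CPM in KO-labelled libraries and 151 and 140.2 CPM in WT-labelled libraries (log2 fold change 0.57), and Cd2, an adhesion receptor, at 296 and 265 CPM in KO-labelled libraries and 197 and 187 CPM in WT-labelled libraries (log2 fold change 0.55). Of 10 anergy-linked ubiquitin ligases and diacylglycerol kinases 3 rose and 3 fell, and 1 was called lower without Nr4a1 KO replicate 1 or without Nr4a1 WT replicate 2. Dgkz, which removes the messenger diacylglycerol, read at 375 and 390.2 CPM in KO-labelled libraries and 646 and 736 CPM in WT-labelled libraries (log2 fold change -0.85, SE 0.06, adjusted p = 4.18e-10). Nedd4, a ubiquitin ligase, read at 179 and 187 CPM in KO-labelled libraries and 73.3 and 70.7 CPM in WT-labelled libraries (log2 fold change 1.34, SE 0.06, adjusted p = 5.59e-13). Ndrg1 read at 36.5 and 57.1 CPM in KO-labelled libraries and 34.7 and 29 CPM in WT-labelled libraries, and its call ended without Nr4a1 KO replicate 2.

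**Figure D3:**
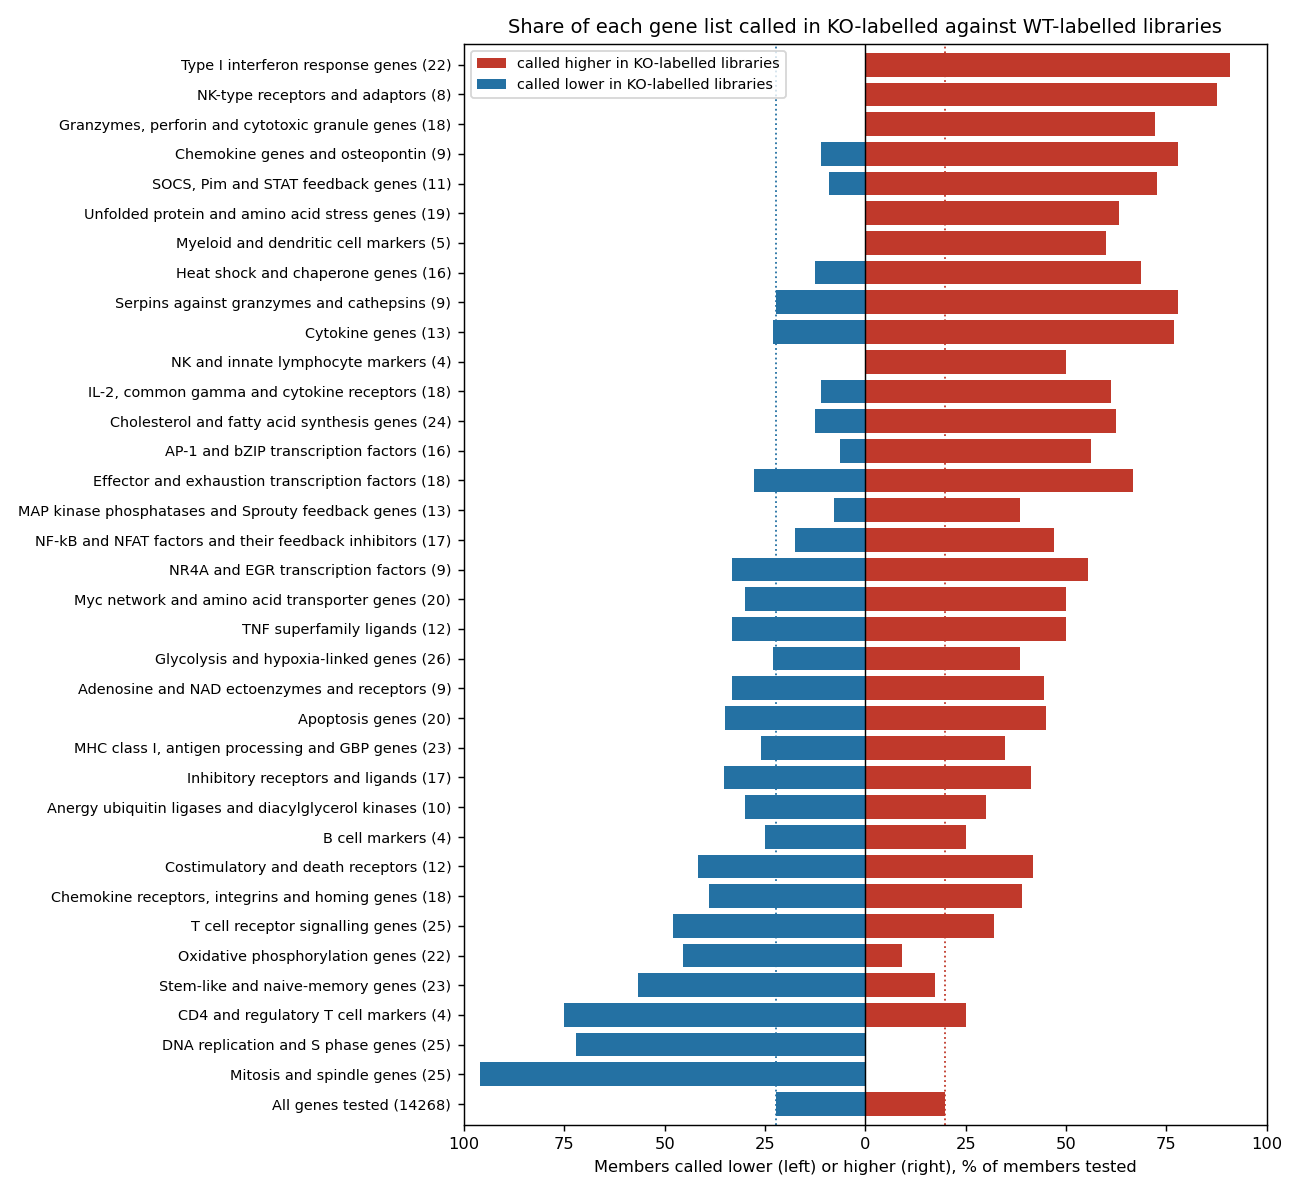
Bars give, for each list with at least 4 tested members (number in parentheses), the percentage called higher to the right and lower to the left in KO-labelled against WT-labelled libraries, with all 14268 genes at the bottom and their shares (19.8% and 22.3%) as dotted lines. Type I interferon genes (20 of 22 higher) and mitosis genes (24 of 25 lower) lie at the ends.

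Most listed genes of mitosis and DNA replication were lower in the KO-labelled libraries, each by a modest amount. Of 25 mitosis and spindle genes 24 fell and 0 rose, with a median log2 fold change of -0.483. Cdc20, an activator of the anaphase-promoting complex, read at 84.4 and 84.3 CPM in KO-labelled libraries and 153 and 148 CPM in WT-labelled libraries (log2 fold change -0.84, SE 0.06, adjusted p = 3.41e-10). Mki67, the proliferation marker Ki-67, read at 759.9 and 745 CPM in KO-labelled libraries and 1121 and 1226 CPM in WT-labelled libraries (log2 fold change -0.64), Kif20a, a kinesin of cell division, at 81.4 and 77.3 CPM in KO-labelled libraries and 123 and 128 CPM in WT-labelled libraries (log2 fold change -0.66) and Ccna2, cyclin A2, at 230.4 and 215 CPM in KO-labelled libraries and 327 and 323 CPM in WT-labelled libraries (log2 fold change -0.55). The groups did not overlap in any of these. Of 25 DNA replication genes 18 fell and 0 rose, with a median log2 fold change of -0.233, and without Nr4a1 KO replicate 2 the count was 11. E2f2 read at 77 and 73.5 CPM in KO-labelled libraries and 115 and 126 CPM in WT-labelled libraries (log2 fold change -0.68), Tyms, thymidylate synthase, at 54.6 and 49.3 CPM in KO-labelled libraries and 83.1 and 73.1 CPM in WT-labelled libraries (log2 fold change -0.59), and Mcm5, a subunit of the replicative helicase, at 310.2 and 294 CPM in KO-labelled libraries and 395 and 385 CPM in WT-labelled libraries (log2 fold change -0.37). Of 26 histone genes, taken by symbol, 3 rose and 0 fell, beside 19.8% and 22.3% over all genes tested. They summed to only 39 and 35.8 CPM in KO-labelled libraries and 37.9 and 36.7 CPM in WT-labelled libraries. In bulk RNA, fewer cycling cells and less of the mitosis and replication transcripts per cell cannot be told apart.

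Apoptosis genes were split, 9 of 20 higher and 7 lower, and without Nr4a1 WT replicate 2 the lower count was 4. Bcl2l11, which encodes the killer protein BIM, read at 151 and 155 CPM in KO-labelled libraries and 321 and 365 CPM in WT-labelled libraries (log2 fold change -1.16, SE 0.06, adjusted p = 2.93e-12). Bmf, a relative of BIM, read at 4.42 and 3.8 CPM in KO-labelled libraries and 9.17 and 14.1 CPM in WT-labelled libraries (log2 fold change -1.5) and Bbc3, which encodes PUMA, at 13.1 and 14.1 CPM in KO-labelled libraries and 22.4 and 20.4 CPM in WT-labelled libraries (log2 fold change -0.65). These 3 death-promoting genes were lower in both KO-labelled libraries.

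Of 26 glycolysis and hypoxia-linked genes 10 rose and 6 fell, with a median log2 fold change of 0.0484, and without Nr4a1 KO replicate 2 the lower count was 10. Slc2a3, the glucose transporter GLUT3, read at 435 and 616 CPM in KO-labelled libraries and 163 and 176 CPM in WT-labelled libraries (log2 fold change 1.63, SE 0.1, adjusted p = 5.73e-11). It was higher in both KO-labelled libraries, which differed between themselves. Aldoc read at 43.4 and 47.4 CPM in KO-labelled libraries and 11.9 and 15.6 CPM in WT-labelled libraries (log2 fold change 1.72), the hexokinase gene Hk2 at 204 and 215 CPM in KO-labelled libraries and 124 and 112 CPM in WT-labelled libraries (log2 fold change 0.83), and Hif1a, the hypoxia factor, at 838 and 826 CPM in KO-labelled libraries and 529 and 543 CPM in WT-labelled libraries (log2 fold change 0.63). Of 22 nuclear genes of oxidative phosphorylation 10 fell and 2 rose, with a median log2 fold change of -0.13, and without Nr4a1 KO replicate 2 the lower count was 6. Ndufa4 fell to 70.3 and 63.5 CPM in KO-labelled libraries, against 108 and 97.1 CPM in WT-labelled libraries (log2 fold change -0.61).

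Genes of lipid synthesis, amino acid supply and protein stress rose more often than they fell. Of 24 cholesterol and fatty acid genes 15 rose and 3 fell, with a median log2 fold change of 0.225. Scd1, which makes monounsaturated fatty acids, read at 144 and 125 CPM in KO-labelled libraries and 67.1 and 63.9 CPM in WT-labelled libraries (log2 fold change 1.04, SE 0.07, adjusted p = 1.55e-10), and Hmgcs1, an early enzyme of cholesterol synthesis, at 329.6 and 291 CPM in KO-labelled libraries and 247 and 213 CPM in WT-labelled libraries (log2 fold change 0.43). Of 20 Myc network and amino acid transporter genes 10 rose and 6 fell, but at 2-fold or more 2 were higher and 3 lower. Slc7a5 and Slc3a2, the chains of a leucine transporter, read at 352 and 408 CPM in KO-labelled libraries and 237 and 217 CPM in WT-labelled libraries (log2 fold change 0.75) and at 255 and 295 CPM in KO-labelled libraries and 182 and 163 CPM in WT-labelled libraries (log2 fold change 0.67). Both chains were higher in the KO-labelled libraries. Of 19 unfolded protein and amino acid stress genes 12 rose and 0 fell, with a median log2 fold change of 0.368. Asns, asparagine synthetase, read at 169 and 196 CPM in KO-labelled libraries and 88.2 and 73.7 CPM in WT-labelled libraries (log2 fold change 1.17, SE 0.08, adjusted p = 1.38e-10), and Xbp1, a factor of the unfolded protein response, at 176 and 189.9 CPM in KO-labelled libraries and 129 and 112 CPM in WT-labelled libraries (log2 fold change 0.6). Of 16 heat shock and chaperone genes 11 rose and 2 fell, among them Hspa5 (BiP), at 974 and 1032 CPM in KO-labelled libraries and 766 and 711 CPM in WT-labelled libraries (log2 fold change 0.44).

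Type I interferon response genes rose together, 20 of 22 higher and 0 lower, 13 of them at 2-fold or more, with a median log2 fold change of 1.2. Beside Oasl2 and Ifi44, Oas3, an oligoadenylate synthetase, read at 181 and 182 CPM in KO-labelled libraries and 55.2 and 61.2 CPM in WT-labelled libraries (log2 fold change 1.64, SE 0.06, adjusted p = 2.76e-14). Isg20, an antiviral exonuclease, read at 42.4 and 38.3 CPM in KO-labelled libraries and 11.1 and 11.4 CPM in WT-labelled libraries (log2 fold change 1.85, SE 0.09, adjusted p = 1.55e-12). Isg15, a ubiquitin-like modifier, read at 37.7 and 35.3 CPM in KO-labelled libraries and 11 and 10.6 CPM in WT-labelled libraries (log2 fold change 1.76), and Oas1a at 7.18 and 9.29 CPM in KO-labelled libraries and 0.714 and 0.815 CPM in WT-labelled libraries (log2 fold change 3.42). Each was higher in both KO-labelled libraries. Ifit2 and Irf9 did not pass (adjusted p = 0.835 and 0.118). The list summed to 1367 and 1310 CPM in the KO-labelled libraries and 671 and 674 CPM in the WT-labelled libraries. Genes that interferon-γ also induces did not follow as a group. Of 23 MHC class I, antigen processing and GBP genes 8 rose and 6 fell, with a median log2 fold change of -0.0154. H2-Q7, a nonclassical class I gene with near-identical relatives, read at 302 and 281 CPM in KO-labelled libraries and 134 and 142 CPM in WT-labelled libraries (log2 fold change 1.08), whereas Gbp2, a guanylate-binding protein gene, read at 260.3 and 258 CPM in KO-labelled libraries and 422 and 418 CPM in WT-labelled libraries (log2 fold change -0.7).

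Interferon signals act through a promoter element called ISRE, searched here as GAAA, 2 further bases of any kind and GAAA, on both strands, with overlapping matches allowed, in the 300 bases around each start. It was found in 8 of the 16 tested interferon list genes with a RefSeq promoter (50%), against 370 of all 9706 tested genes (3.81%), in 5.44% of the genes called higher, 3.40% of those called lower and 3.38% of those not called. The list is made of known interferon targets, so the first share describes the list and not the libraries. The sequences of 5 of these 8, chosen to show single, repeated and overlapping matches, cover the 150 bases before the start (RefSeq, GRCm38.p6) with matches in capitals. They lie at chr5:120907526-120907675, chr5:120777660-120777809, chr4:156200819-156200968 and chr12:26456453-26456602 on the minus strand and chr19:34640739-34640888 on the plus strand.
Oas1a: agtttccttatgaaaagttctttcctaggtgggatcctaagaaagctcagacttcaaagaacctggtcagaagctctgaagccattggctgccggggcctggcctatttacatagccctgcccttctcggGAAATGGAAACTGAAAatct
Oas3: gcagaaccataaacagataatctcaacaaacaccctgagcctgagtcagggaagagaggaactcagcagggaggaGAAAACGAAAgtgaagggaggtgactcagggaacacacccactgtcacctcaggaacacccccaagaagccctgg
Isg15: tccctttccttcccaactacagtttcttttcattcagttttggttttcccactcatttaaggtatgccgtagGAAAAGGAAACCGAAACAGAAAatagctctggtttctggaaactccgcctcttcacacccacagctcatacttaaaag
Ifit1: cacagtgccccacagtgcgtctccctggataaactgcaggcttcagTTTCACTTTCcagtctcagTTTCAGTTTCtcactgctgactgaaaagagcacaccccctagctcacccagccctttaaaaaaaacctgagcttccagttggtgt
Rsad2: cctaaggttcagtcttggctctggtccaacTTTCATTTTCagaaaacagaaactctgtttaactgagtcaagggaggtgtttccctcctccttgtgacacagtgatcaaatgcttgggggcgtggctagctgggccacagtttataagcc
In Isg15 3 matches overlap, in Oas1a 2 overlap close to the start, in Ifit1 2 stand apart and read on the reverse strand, and Oas3 and Rsad2 have 1 each, that of Rsad2 on the reverse strand. Ifit1 read at 9.24 and 7.42 CPM in KO-labelled libraries and 4.23 and 4.18 CPM in WT-labelled libraries (log2 fold change 0.99) and Rsad2, an antiviral radical enzyme, at 5.8 and 7.37 CPM in KO-labelled libraries and 2.58 and 3.2 CPM in WT-labelled libraries (log2 fold change 1.18). Oasl2, with the largest fold change of the list, holds no match in this window.

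Genes that mark other cells were compared as well, since they could move with the lists above. The 4 tested B cell markers of 9 summed to 270 and 260 CPM in the KO-labelled libraries and 458 and 522 CPM in the WT-labelled libraries, nearly all of it Ighm, at 262 and 250.1 CPM in KO-labelled libraries and 452 and 518 CPM in WT-labelled libraries (log2 fold change -0.92), with Ms4a1, Pax5 and Blnk not listed. Of these 4 genes 1 fell and 1 rose, with a median log2 fold change of 0.251. The one that rose was Ebf1, a factor of early B cells, at 2.64 and 3.74 CPM in KO-labelled libraries and 0.823 and 0.815 CPM in WT-labelled libraries (log2 fold change 1.95). The 5 tested myeloid and dendritic cell markers of 14 summed to 91.2 and 93 CPM in the KO-labelled libraries and 62.8 and 65.0 CPM in the WT-labelled libraries, and 3 rose, Cd68 at 15.2 and 16.1 CPM in KO-labelled libraries and 5.33 and 5.76 CPM in WT-labelled libraries (log2 fold change 1.5) among them, with Csf1r, Adgre1, S100a8 and S100a9 not listed. The 4 tested markers of CD4 and regulatory T cells of 5 summed to 144 and 155 CPM in the KO-labelled libraries and 198 and 223 CPM in the WT-labelled libraries. That sum is mostly Ikzf2 (Helios), at 114 and 122 CPM in KO-labelled libraries and 168 and 195 CPM in WT-labelled libraries (log2 fold change -0.62). Of the 4 genes 3 fell, and Zbtb7b, which encodes the CD4-lineage factor ThPOK, rose, at 27.7 and 32 CPM in KO-labelled libraries and 16.2 and 17.1 CPM in WT-labelled libraries (log2 fold change 0.84). Of 10 NK and innate lymphocyte markers 4 were tested and 2 rose, Eomes and Il1rl1, at sums of 287 and 261 CPM against 98.5 and 99.9 CPM, and Ncr1 and Klrb1c are not listed. No erythroid marker passed the filter. What part such cells have in the results was not tested.

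The other cultured comparison, Nr4a1-OV against RV-GFP, shares no library with this one. There, 8819 of 14268 genes passed (61.8%), 4524 higher (31.7%) and 4295 lower (30.1%) in Nr4a1-OV libraries, and 2593 genes were called in both comparisons with opposite signs (18.2%) and 1659 with the same sign (11.6%). The difference between the 2 effects passed its own test for 8213 genes (57.6%). Cytokine genes called in both, 11 in number, all had opposite signs, 9 of them higher in KO-labelled and lower in Nr4a1-OV libraries, with median log2 fold changes of 0.791 for KO over WT and -1.31 for Nr4a1-OV over RV-GFP. Ifng read at 823 and 860.0 CPM in Nr4a1-OV and 4545 and 4766 CPM in RV-GFP libraries (log2 fold change -2.47), against its 2.39 for KO over WT (adjusted p of the difference 1.38e-15). Of 9 granule genes called in both, 7 had opposite signs, beside 2593 of the 4252 genes called in both over all genes tested. Prf1 read at 293 and 305 CPM in Nr4a1-OV and 428 and 434 CPM in RV-GFP libraries (log2 fold change -0.53, adjusted p of the difference 1.46e-16).

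Mitosis genes moved in the same direction in both comparisons. All 21 called in both fell in both, with median log2 fold changes of -0.483 for KO over WT and -0.585 for Nr4a1-OV over RV-GFP, and 16 of 17 replication genes called in both shared their sign. Over all 4252 genes called in both, 1659 had the same sign and 2593 opposite signs. Among stem-like genes called in both 9 of 17 had opposite signs, close to that share. Id3 fell in both, with 15.6 and 17.1 CPM in Nr4a1-OV and 30.7 and 39.9 CPM in RV-GFP libraries (log2 fold change -1.11, adjusted p of the difference 7.12e-05). Il7r rose in both, at 335 and 314 CPM in Nr4a1-OV and 96.4 and 88.9 CPM in RV-GFP libraries (log2 fold change 1.81, adjusted p of the difference 0.00826). Tox, lower in KO-labelled libraries, was higher in Nr4a1-OV libraries, at 72.7 and 68.1 CPM against 22.2 and 22.9 CPM in RV-GFP (log2 fold change 1.64, adjusted p of the difference 1.55e-15).

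The genes with the largest opposite changes, ranked by the smaller of the 2 absolute log2 fold changes and so described without a test, were led by Foxp3, at 260.1 and 262 CPM in Nr4a1-OV and 3.55 and 2.91 CPM in RV-GFP libraries (log2 fold change 6.33). Trpm1, a cation channel gene, Ccr2, Il23a, Il1r2, a decoy receptor for interleukin 1, Neto1, Acacb, the mitochondrial acetyl-CoA carboxylase, and Tmem121b completed these 8. Tgm2, transglutaminase 2, led those with the same sign, at 4.82 and 5.21 CPM in KO-labelled libraries and 0.549 and 0.543 CPM in WT-labelled libraries (log2 fold change 3.18) and at 29.1 and 28.4 CPM in Nr4a1-OV against 0.856 and 1.32 CPM in RV-GFP libraries (log2 fold change 4.72). Kit, the stem cell factor receptor, read at 30.1 and 41 CPM in KO-labelled libraries and 6.37 and 9.5 CPM in WT-labelled libraries (log2 fold change 2.16) and at 77.2 and 69.6 CPM in Nr4a1-OV against 7.77 and 9.78 CPM in RV-GFP libraries (log2 fold change 3.06). Filip1, Dthd1, Ttc39c, Mreg, Rn7sk and Cystm1 also rose in both.

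**Figure D4:**
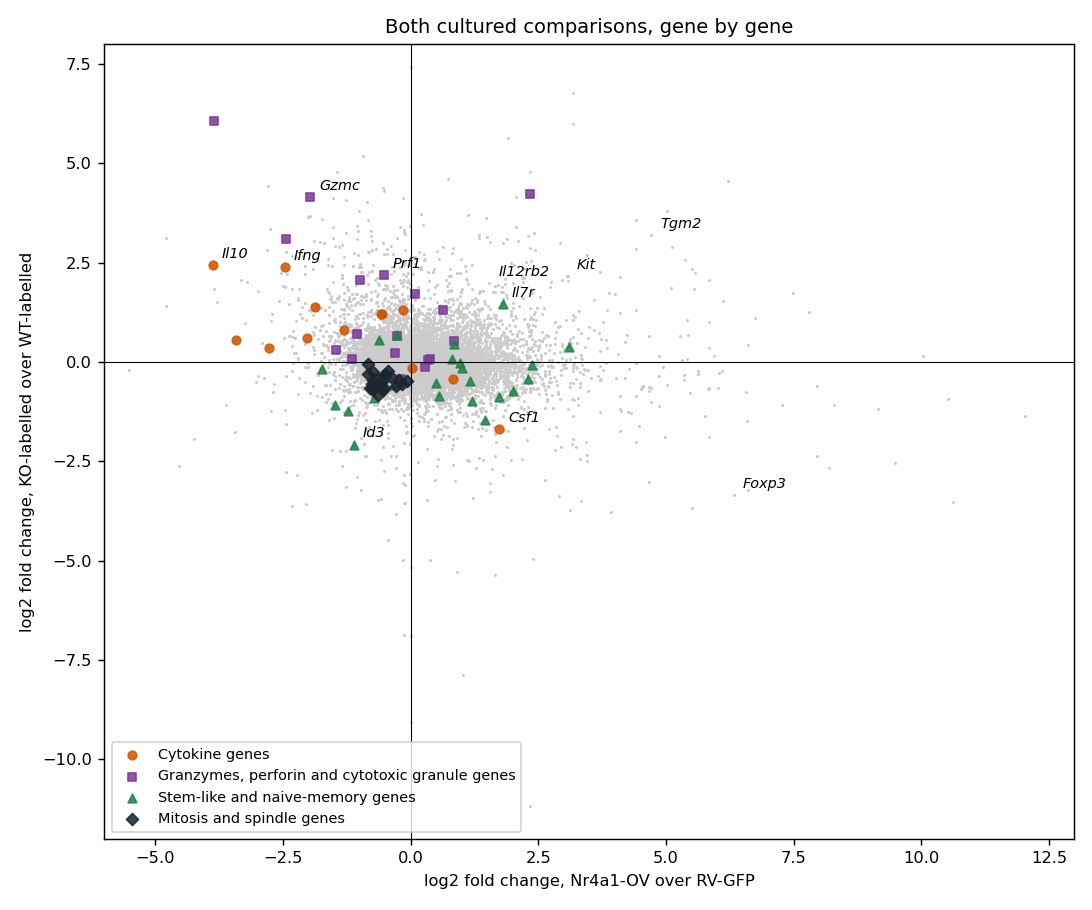
Each point is a gene, with the log2 fold change of Nr4a1-OV over RV-GFP on the x axis and of KO-labelled over WT-labelled libraries on the y axis; 4 gene lists are coloured. Cytokine genes called in both lie in the upper left and lower right (11 of 11), mitosis genes in the lower left (21 of 21).

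Sorted Ly108+ tumour cells with the same genotype labels gave other values for most of these genes, in RPKM (reads scaled to gene length and library size), with no test across the settings. Nr4a1 averaged 105 ± 6.43 RPKM in Ly108+ Nr4a1 KO and 48.4 ± 4.78 RPKM in Ly108+ Nr4a1 WT cells (SD, n = 3 each), higher under the KO label there too. Prf1 averaged 18.1 ± 0.967 and 17.1 ± 0.901 RPKM in Ly108+ KO and WT cells, and the libraries overlapped. Id3 averaged 22.8 ± 3.53 RPKM in Ly108+ KO and 18.7 ± 1.11 RPKM in Ly108+ WT cells, again overlapping. Of the genes chosen by the naming rule that were higher in KO-labelled culture and have a row there, 26 had all 3 Ly108+ KO libraries above all 3 Ly108+ WT libraries, 9 had them below and 78 overlapped. Of those lower in culture, the counts were 14 above, 10 below and 30 overlapping. Over all 12340 tested genes with a row there, the share with Ly108+ KO above was 13.5% and that with Ly108+ KO below 14.4%. Of the named genes higher in culture the shares were 23% and 7.96%, and of those lower in culture 25.9% and 18.5%. Over all genes called higher in culture with a row there, the shares were 15.6% above and 13.5% below. Over all genes called lower they were 13.7% above and 16.9% below. Gzmc ran the same way as in culture, at 4.57 ± 0.504 RPKM in Ly108+ KO and 2.8 ± 0.694 RPKM in Ly108+ WT cells. So did Gzmb, at 265 ± 13.1 RPKM in Ly108+ KO and 228 ± 12.7 RPKM in Ly108+ WT cells, and Serpinb9, at 47 ± 0.958 and 40.9 ± 1.74 RPKM in Ly108+ KO and WT cells, with no overlap in these 3 genes. Apobec3 was lower in both settings, at 2.44 ± 0.368 RPKM in Ly108+ KO and 13.5 ± 0.175 RPKM in Ly108+ WT cells, and Dennd3 higher in both, at 12.7 ± 0.894 and 3.18 ± 0.33 RPKM in Ly108+ KO and WT cells.

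Apobec3 and Dennd3 lie on chromosome 15, as Nr4a1 does, though each is more than 20 Mb from it. On that chromosome 277 of 533 genes were called (52%), and within 20 Mb of Nr4a1 126 of 216 (58.3%), beside 42.1% of the 14225 genes with a position. At 4-fold or more the share was 19 of 533 genes (3.56%) on the whole chromosome and 3 of 216 (1.39%) within 20 Mb. Over all positioned genes it was 2.04%, and the highest share of any chromosome was 3.71% on chromosome 13. Tnfrsf11b, Arc and Myh9, named above, and Gm2682, described below, lie on chromosome 15 as well, and this list of named genes is not complete. The labels do not say whether the DNA around Nr4a1 differs in strain between the groups. An effect of Nr4a1 and one of its neighbourhood therefore cannot be told apart for genes of chromosome 15.

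Among genes with at least 16-fold differences and a mean of 5 CPM or more in either group, 13 were found, 6 of them lower in KO-labelled libraries, and all 6 were pseudogenes or long noncoding RNA genes. Gm5948, a pseudogene on chromosome 10, read at 0 and 0.113 CPM in KO-labelled libraries and 33.5 and 34.9 CPM in WT-labelled libraries, a ratio of 599 in WT over KO (exact 95% interval 166 to 4952, counting error only). Gm42031, a long noncoding RNA gene on chromosome 8, had 0 counts in the KO-labelled libraries, against 14.2 and 19.7 CPM in the WT-labelled libraries, and was at least 99.1-fold lower at a floor of 3 counts per library. Gm8199, a pseudogene on chromosome X, read at 0.0574 and 0.17 CPM in KO-labelled libraries and 15.5 and 13.1 CPM in WT-labelled libraries, and Gm6278, a pseudogene on chromosome 16, at 0.861 and 0.623 CPM in KO-labelled libraries and 17.3 and 16.1 CPM in WT-labelled libraries. These 4 and Rplp0-ps1 were as low in Nr4a1-OV and RV-GFP libraries as in the KO-labelled ones, so the WT-labelled libraries stand apart from the other 6. Gm2682 on chromosome 15, at 0.402 and 0 CPM in KO-labelled libraries and 6.31 and 6.68 CPM in WT-labelled libraries, was the exception, with 29.6 and 26.2 CPM in Nr4a1-OV and 22.4 and 20.3 CPM in RV-GFP libraries. In the Ly108+ cells the first 5 ran the other way, as in Gm5948, which averaged 51.6 ± 9.24 RPKM in Ly108+ KO and 0.0769 ± 0.0767 RPKM in Ly108+ WT cells. Gm5948, Gm42031, Gm8199 and Gm2682 passed the culture count filter only through the WT-labelled libraries, where they are high, so their culture ratios are descriptive. Pseudogenes with parents of near-identical sequence can take up reads of the parent, and a difference in genotype, one in strain and an exchange of the genotype labels in 1 of the settings cannot be told apart. An exchange of labels in culture would turn every KO-against-WT direction given here.

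**Figure D5:**
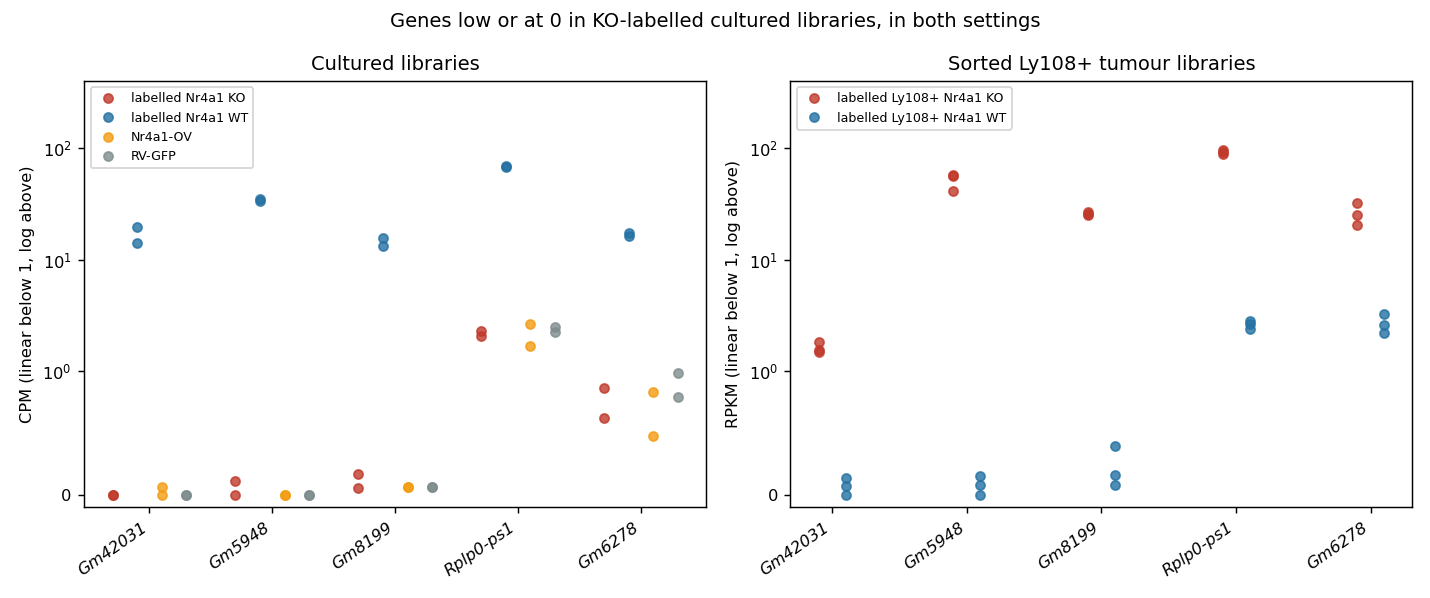
The left panel gives CPM in the 8 cultured libraries and the right panel RPKM in the 6 Ly108+ libraries for 5 genes, on an axis that is linear below 1 and logarithmic above, each point a library. In culture the KO-labelled libraries and the 4 virus-infected ones are low and the WT-labelled libraries high, while in Ly108+ cells the KO-labelled libraries are high and the WT-labelled ones low.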

How the data were processed

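Gene read counts of the 8 cultured libraries were taken as the authors deposited them, and RPKM values of the Ly108+ cells likewise from the authors' deposited table. Per the submitters' processing notes Trim Galore, HISAT2, edgeR, DESeq2 and mm10 were used, with versions and settings not given in the sources used here; 2 columns of the Ly108+ table matched no sample label and were not used. Counts of all 8 libraries were fitted in 1 model with edgeR 4.0.16 (TMM scaling, quasi-likelihood test, Benjamini-Hochberg adjustment over 14268 genes, R 4.3.3), after tests on simulated data. Ly108+ differences in the closing section are on log2(RPKM + 1). Intervals and floors cover counting error only. Gene positions follow GRCm38. The members and gene lists were chosen with earlier results of these data known. Called genes were named as the 15 at each end of the fold change order, 5 largest CPM changes each way, up to 4 members a list by p, and 8 of either sign relation to Nr4a1-OV. The 15 at each end needed groups that did not overlap. They and those compared with Nr4a1-OV needed a mean log2 CPM of at least 1 and no Gm-number, Rik or date symbol. Cd8a, Cd3e, the Gm genes, Gzmd, Gzme, Il2, Klf2, Lef1, Tcf7, Ccr7, Tnfsf8, Lag3, Pdcd1, Prdm1, Tbx21, Isg15, Ifit1, Rsad2, Socs2, Dusp10, Serpina3f, Serpina3g and the uncalled list members named were chosen after their values were seen. Alternatives were other scaling (RLE), other filters, DESeq2 1.42.0, limma-voom (limma 3.58.1), a replicate block, the 4 libraries alone and leaving out each library. A few results are not reported here.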

Additional observations from a re-analysis of the deposited data

Results flagged for a closer look

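In 26 of the genes named in the text the difference between the genotype labels ran in opposite directions in the 2 settings, with every library of each on its side. The values are log2(RPKM + 1) differences of KO minus WT in Ly108+ cells, beside the log2 fold change of KO over WT in culture, and the difference between the settings was not tested. Gm42031 stood at 1.29 in Ly108+ cells and -11.2 in culture. Gm5948 stood at 5.60 in Ly108+ cells and -9.05 in culture. Gm6278 stood at 2.86 in Ly108+ cells and -4.48 in culture. Gm8199 stood at 4.48 in Ly108+ cells and -6.88 in culture. Rplp0-ps1 stood at 4.69 in Ly108+ cells and -4.99 in culture. These 5 genes lie on 5 different chromosomes.

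The other 21 moved by less than 1 on that scale in Ly108+ cells. The 1 added to each RPKM shrinks the differences of genes at low levels. Oasl2, for instance, averaged 0.306 RPKM in Ly108+ KO and 1.6 RPKM in Ly108+ WT cells. Vsig10 averaged 0.967 RPKM in Ly108+ KO and 0.297 RPKM in Ly108+ WT cells. Of these 21 genes, 9 were higher in KO-labelled culture and lower in Ly108+ KO cells, with Ly108+ differences for Fosl2 (-0.141), Havcr2 (-0.28), Hif1a (-0.0682), Hk2 (-0.199), Il12rb2 (-0.307), Oas3 (-0.165), Oasl2 (-0.99), Rplp0 (-0.634) and Stat3 (-0.282). The other 12 were lower in KO-labelled culture and higher in Ly108+ KO cells, with Ly108+ differences for Acacb (0.409), Bcl2l11 (0.174), Cdc20 (0.169), Csf1 (0.0626), Gbp2 (0.191), Ighm (0.457), Klf2 (0.0919), Ndufa4 (0.243), Nt5e (0.166), Serpina3f (0.207), Serpina3g (0.158) and Vsig10 (0.602). Over the 12340 tested genes with a Ly108+ value, Ly108+ KO libraries stood wholly above Ly108+ WT libraries in 13.5% and wholly below them in 14.4%.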

How the results depend on the processing

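The count of genes called between KO-labelled and WT-labelled libraries, 6003, lay between 4359 (DESeq2) and 6007 (filterByExpr) under the alternatives, and between 4710 and 5076 when 1 library was left out. Every gene called both there and in any alternative had the same sign. The share called higher was 47.1%, and 51.1% in the fit to the 4 libraries alone. Replicate numbers mark no stated pairing, and deviations of libraries with the same number correlated at 0.0612; with the number as a replicate block, fitted to the 4 libraries, 5847 genes were called. Of 175 genes named, 167 kept direction and side of the threshold in every alternative. Nr4a1, mt-Nd2, Ndrg1, Socs2, Dusp10 and Il2 lost their call in at least 1. Among those, Il2 was called in neither DESeq2, limma-voom, the fit to the 4 libraries nor the replicate block. Ctsw and Ifit2, not called, changed sign: when 1 library was left out the log2 fold change of Ctsw ran between -0.003466 (without Nr4a1 KO replicate 1) and 0.155, and that of Ifit2 between -0.06224 and 0.01153 (without Nr4a1 WT replicate 2). The cause was not tested. With 2 libraries a group, the spread rests on few residual degrees of freedom, and genes near the filter of 10 counts are the least certain.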

Other observations

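Genes of the translation machinery were higher in the KO-labelled libraries. Of 79 tested genes for cytosolic ribosomal proteins 63 rose and 1 fell, with a median log2 fold change of 0.363, beside -0.0215 over all genes tested. Their summed level was 42140 and 40700 CPM in the KO-labelled libraries and 33170 and 31360 CPM in the WT-labelled libraries, and the groups did not overlap. The log2 fold changes ran between -0.59 for Rpl30 and 1.07 for Rplp0. Rplp0 read at 2054 and 2040 CPM in KO-labelled libraries and 998 and 947 CPM in WT-labelled libraries. It is the parent of the pseudogene Rplp0-ps1, which changed in the opposite direction at a far lower level. Rplp0-ps1 read at 2.3 and 2.04 CPM in KO-labelled libraries and 69.6 and 68.3 CPM in WT-labelled libraries. How far reads are divided between the 2 was not tested. Of 10 small nucleolar RNA host genes 8 rose and 0 fell, with a median log2 fold change of 0.29. Over all genes tested 19.8% were called higher and 22.3% lower. These families were picked by symbol after the data were seen.

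Among immunoglobulin and T cell receptor segments more were called lower than higher. Of 6 immunoglobulin segments 4 fell and 0 rose. Ighd fell by 3.04 on the log2 scale and Ighm by 0.92. Of 116 T cell receptor segments 2 rose, 7 fell and 107 were not called. Over 122 gene segments of all kinds 10.7% were called, beside 42.1% of all genes tested. Levels were low for many, as the 50 Trav segments together held 84.6 and 80.8 CPM in KO-labelled libraries. In WT-labelled libraries they held 96.3 and 100.7 CPM.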
